A study of Bos taurus with 12 samples.

Results

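The miR-30 family was followed in bovine granulosa cells, the cells that line the ovarian follicle around the oocyte and make estradiol. A microRNA (miRNA) is a short RNA that guides Argonaute proteins to messenger RNAs. It pairs with them mainly through a seed near its 5′ end, which lowers their stability and translation. The members of the miR-30 family share their seed and differ mostly in the rest of the sequence, so they are predicted to reach largely the same messengers. In other tissues the family is known for its repression of regulators of autophagy, of the epithelial to mesenchymal transition and of connective tissue growth factor. The family was defined here by name, and 7 of the 755 mature miRNA names in the count files belonged to it: bta-miR-30a-5p, bta-miR-30b-5p, bta-miR-30b-3p, bta-miR-30c, bta-miR-30d, bta-miR-30e-5p and bta-miR-30f. Each name had 1 precursor entry in the files. All are guide strands or carry no arm in their name, except bta-miR-30b-3p, which comes from the opposite arm of the bta-mir-30b hairpin and has another seed.

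The cells came from subordinate follicles (SF) and dominant follicles (DF) of Simmental heifers whose estrus had been synchronized with the prostaglandin analogue cloprostenol and the gonadotropin-releasing hormone analogue buserelin. The heifers were slaughtered on either day 3 or day 7 after estrus, so the days compare different animals, and all groups shared the synchronization. The SF and DF of a day were dissected from the ovaries of the same set of heifers. The follicle classes of a day were thus not drawn from separate animals, whereas the tests treated all libraries as independent. Each of the 4 groups, SF at day 3, DF at day 3, SF at day 7 and DF at day 7, had 3 small RNA libraries numbered as biological replicates. Follicles were classed by diameter, with other size limits on each day, and DF at day 7 was the group drawn from the fewest follicles. The fluid of follicles of like size was pooled before the granulosa cells were spun down. No label therefore ties a library to a single animal, and the p-values measure the spread between these libraries. The paper lists 3 follicles for DF at day 7, as many as the libraries of that group. Such a library may hold a single follicle, whereas the other groups drew on more follicles. The libraries held 160418 to 405129 reads on known miRNAs (median 297449). As an upper bound for a count of 0, 3 reads were taken, which were 0.000741 to 0.00187% of a library. That bound covers counting error only and is not the rule for detection, which is given below.

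In the bovine RefSeq annotation the 6 precursor genes of the family formed 3 pairs. MIR30C and MIR30E were each other's nearest annotated miRNA gene, and both lay within the span of NFYC, a protein coding gene for a subunit of the transcription factor NF-Y. MIR30B and MIR30D were likewise nearest to each other, with no annotated gene spanning them. MIR30A and MIR30F formed the last pair, where a predicted protein coding gene, LOC132346186, spanned MIR30A and no gene spanned MIR30F. The pairs are used below to order the members. The members are near-identical over much of their length, and how reads that matched more than 1 of them were assigned is not given in the sources used here, so that the split of reads between members is uncertain.

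Read counts were divided by size factors over the 12 libraries to give normalized read counts. The fold changes given below come from the tests, and each test between groups took its factors from the 6 libraries compared. They can therefore differ from the ratio of the normalized group means. Mature miRNAs are of nearly equal length, so no correction for length was made, and differences in ligation between members were not measured. By the mean over the 12 libraries, bta-miR-30d ranked 15 of the 755 names with 3947 normalized reads, bta-miR-30a-5p ranked 16 with 3730 and bta-miR-30e-5p ranked 19 with 2097. Next came bta-miR-30c at rank 38 with 1030, bta-miR-30b-5p at rank 60 with 420 and bta-miR-30f at rank 100 with 144. All these 6 members were detected in all 4 groups, which took 1 read or more in 2 or more replicates. The passenger strand bta-miR-30b-3p held 9 reads in all and was detected in DF at day 3 only.

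The pair of bta-miR-30e-5p and bta-miR-30c gave the largest differences among the 6 abundant members, and both turned on the DF libraries of day 7. In normalized reads, bta-miR-30e-5p stood at 2595, 3089.5 and 2533 in SF at day 3, at 2571, 2660 and 2126 in DF at day 3, and at 2545, 2249 and 2241 in SF at day 7. In DF at day 7 it stood at 823, 837 and 890. The highest of these DF libraries thus lay below the lowest of the other 9 libraries, at 2126, and the 3 libraries lay close together. For bta-miR-30c the values were 1305, 1496 and 1264 in SF at day 3, 974, 1142 and 1036 in DF at day 3, and 1231, 1129 and 1290 in SF at day 7, against 491, 491 and 506 in DF at day 7. Here too all 3 DF libraries of day 7 lay below all other libraries, of which the lowest was at 974.

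The pair of bta-miR-30d and bta-miR-30b-5p was also lowest in DF at day 7, but by less. The values of bta-miR-30d were 3780, 4551 and 3972 in SF at day 3, 4283, 3996 and 4573 in DF at day 3, then 4804, 4016 and 4066 in SF at day 7, and 3007, 2604 and 3713 in DF at day 7. Its highest DF library of day 7 was only just under the lowest other library, an SF library of day 3. The values of bta-miR-30b-5p were 406, 587 and 479 in SF at day 3, 437, 496 and 426 in DF at day 3, then 454, 401 and 456 in SF at day 7, and 276, 295 and 326 in DF at day 7. Its 3 DF libraries of day 7 were likewise the lowest 3 of 12. How many of all miRNAs had this pattern over the 12 libraries was not counted, and only shares for pairs of groups are given below.

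The pair of bta-miR-30a-5p and bta-miR-30f did not share this pattern. The values of bta-miR-30a-5p were 3718, 4926 and 3413 in SF at day 3, 3267, 3442 and 3217 in DF at day 3, then 2810, 3751 and 3684 in SF at day 7, and 4112, 2499 and 5916 in DF at day 7. The DF libraries of day 7 held both its lowest and its highest value of all 12. The values of bta-miR-30f were 166, 184 and 124 in SF at day 3, 119, 119 and 121 in DF at day 3, then 106, 144 and 165 in SF at day 7, and 154, 116 and 205 in DF at day 7. Replicate 3 of DF at day 7 was the highest library for both members of this pair, and replicate 2 was the lowest of the 3 for both.

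**Figure D1:**
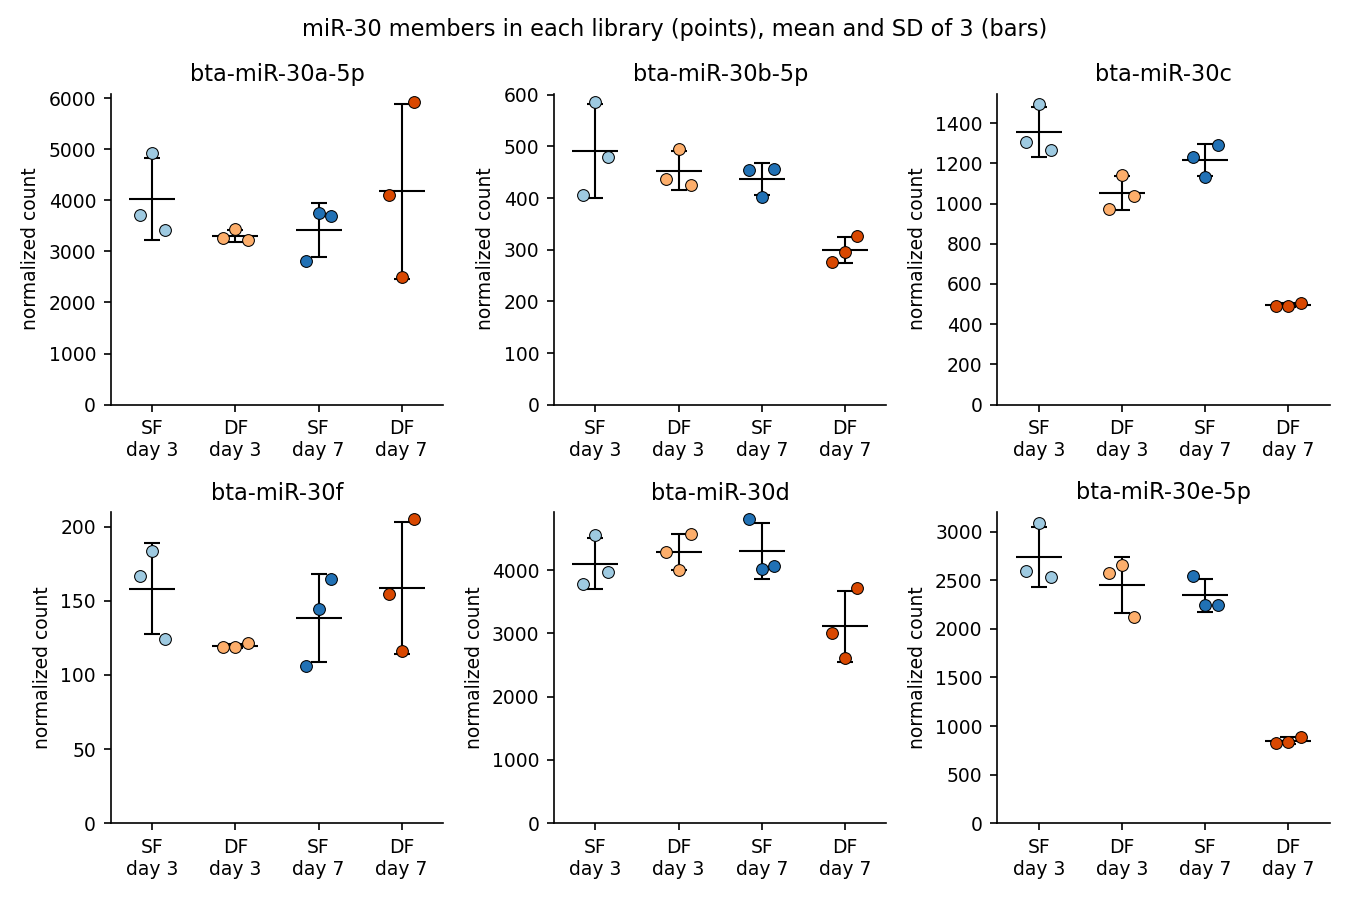
Normalized read count (y axis, linear and from 0) of the 6 abundant miR-30 members in each of the 12 libraries. Points are libraries, and the horizontal and vertical bars are the mean and SD of the 3 libraries of a group. The 3 DF libraries of day 7 sit at 823 to 890 for bta-miR-30e-5p and at 491 to 506 for bta-miR-30c, below all other libraries, whereas for bta-miR-30a-5p they spread from 2499 to 5916.

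At day 7, SF and DF were compared to see whether miRNA levels differ between the subordinate and the dominant follicle once dominance is under way. Differential expression meant a change of 2-fold or more (1 on the log2 scale), p up to 0.05 and a false discovery rate up to 10% in edgeR's quasi-likelihood test, adjusted over all miRNAs tested. A miRNA passed the test when it met the last 2 limits at any fold. Of the 6 members tested, 2 were differentially expressed, both higher in SF, where 33.4% of the 350 miRNAs tested were differentially expressed in either direction and 15.1% were so with SF higher. The level of bta-miR-30e-5p was 2345 ± 174 (SD, n = 3) in SF and 850 ± 35.2 (SD, n = 3) in DF, a log2 fold change of 1.54 (SE 0.19, edgeR adjusted p = 0.000322), or 2.90-fold. For bta-miR-30c the means were 1217 ± 81.2 and 496 ± 8.39 (SD, n = 3 each), a log2 fold change of 1.37 (SE 0.20, edgeR adjusted p = 0.000492), or 2.58-fold. Both calls were kept when any 1 of the 6 libraries was left out.

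Another 2 members passed the test at day 7 with less than a doubling, where 19.4% of the miRNAs tested passed with SF higher. The mean of bta-miR-30b-5p was 437 ± 30.9 in SF and 299 ± 25 in DF (SD, n = 3 each), a log2 fold change of 0.62 (SE 0.21, edgeR adjusted p = 0.0443). That of bta-miR-30d was 4295 ± 441 in SF and 3108 ± 561 in DF (SD, n = 3 each), a log2 fold change of 0.55 (SE 0.20, edgeR adjusted p = 0.0603). Neither result was firm. The adjusted p of bta-miR-30b-5p became 0.117 without replicate 3 of SF and 0.173 without replicate 1 of DF. For bta-miR-30d it lay between 0.103 and 0.164 when replicate 1, 2 or 3 of SF or replicate 1 or 2 of DF was left out. The groups did not overlap for these 4 members, as for 22.6% of all miRNAs tested with SF higher.

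The 2 remaining members overlapped between the groups at day 7. The log2 fold change was -0.20 for bta-miR-30a-5p (SE 0.29, edgeR adjusted p = 0.599), with means of 3415 ± 525 in SF and 4176 ± 1709 in DF (SD, n = 3 each). It was -0.12 for bta-miR-30f (SE 0.28, edgeR adjusted p = 0.742), with means of 138 ± 29.9 and 158 ± 44.6 (SD, n = 3 each). Without replicate 3 of DF both signs turned, to 0.10 and 0.076, and that of bta-miR-30f also turned without replicate 1 of SF, to 0.056. A change of the size of that of bta-miR-30d would have been under 2 of these standard errors. The median log2 fold change of the 6 members was 0.58, against -0.05 over all 350 miRNAs tested and 0.28 over the 110 miRNAs with a mean of at least 100 normalized reads, of which 50% were differentially expressed.

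Within DF, day 7 was compared with day 3 to follow the dominant follicle over time. This comparison shares the DF libraries of day 7 with the one just described, so both rest on the same low values. Of the 7 members tested, 3 were differentially expressed, all lower at day 7, and 1 of them was bta-miR-30b-3p, described below with its few reads. Between these groups bta-miR-30e-5p fell from 2453 ± 286 to 850 ± 35.2 (SD, n = 3 each), a log2 fold change of -1.55 (SE 0.19, edgeR adjusted p = 1.75e-05). Likewise bta-miR-30c fell from 1051 ± 85 to 496 ± 8.39 (SD, n = 3 each), a log2 fold change of -1.10 (SE 0.19, edgeR adjusted p = 0.000367). Both remained differentially expressed without any 1 of the 6 libraries. By comparison, 40.3% of the 360 miRNAs tested were differentially expressed between the days in DF, and 15.8% were so with a lower level at day 7.

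Of the same 6 members, 2 more passed the test in DF with a smaller fall, where 20.8% of all miRNAs tested passed with a lower level at day 7. The fall was 0.62 on the log2 scale for bta-miR-30b-5p (log2 fold change -0.62, SE 0.21, edgeR adjusted p = 0.0295) and 0.48 for bta-miR-30d (log2 fold change -0.48, SE 0.19, edgeR adjusted p = 0.0569). Without replicate 1 of DF at day 7 the adjusted p was 0.134 for bta-miR-30b-5p and 0.186 for bta-miR-30d, and for bta-miR-30d it was 0.122 without replicate 3 of DF at day 3. The DF libraries of the 2 days did not overlap for the 4 members of these pairs, as for 25% of all miRNAs tested with a lower level at day 7.

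The third pair had a positive sign in the same comparison, and whether it passed the test turned on 1 library. The log2 fold change was 0.31 for bta-miR-30a-5p (SE 0.25, edgeR adjusted p = 0.338) and 0.39 for bta-miR-30f (SE 0.24, edgeR adjusted p = 0.214). Without replicate 2 of DF at day 7, both members passed the test, with log2 fold changes of 0.57 (adjusted p = 0.0226) and 0.56 (adjusted p = 0.0572). Without replicate 3 of DF at day 7, the value of bta-miR-30a-5p was -0.0096. Over the 6 members the median was -0.55, against 0.05 over all 360 miRNAs tested.

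**Figure D2:**
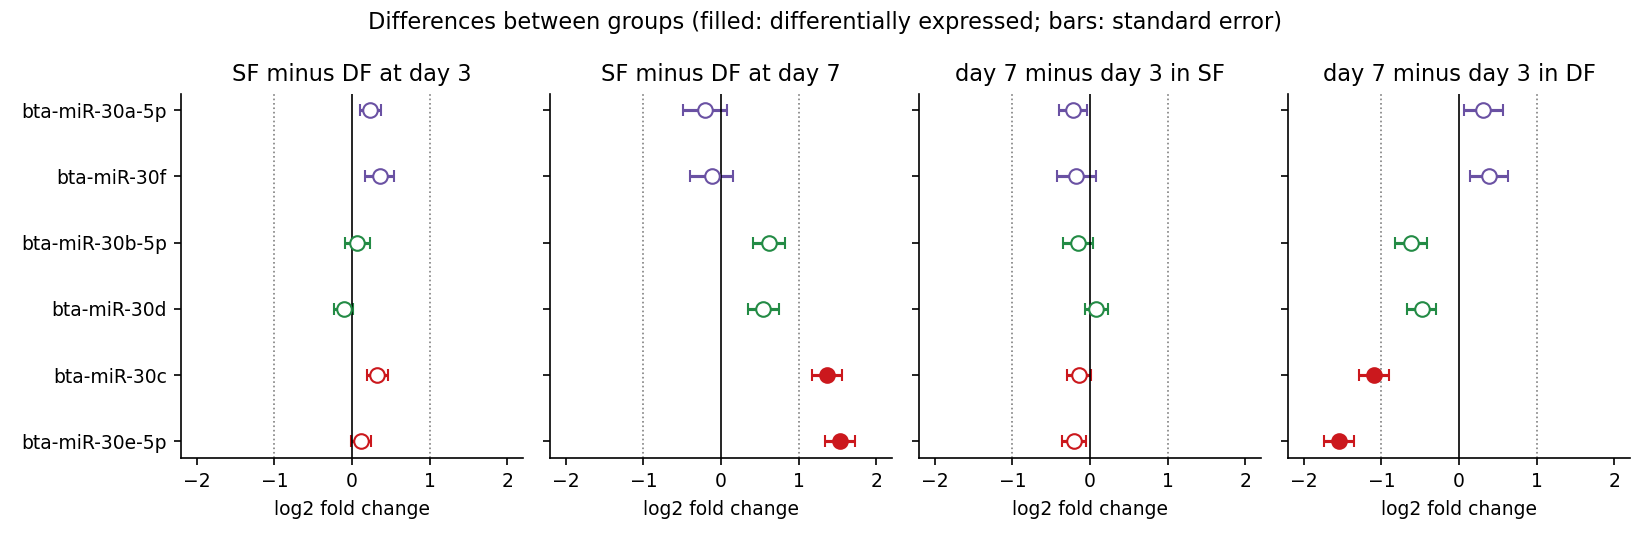
Log2 fold change (x axis) of the 6 abundant members (y axis) in the 4 comparisons, 1 panel each. Bars are standard errors, filled circles are differentially expressed, dotted lines mark a doubling, and colours mark the pairs of neighbouring precursor genes. The filled circles are bta-miR-30c and bta-miR-30e-5p, at 1.37 and 1.54 for SF minus DF at day 7 and at -1.10 and -1.55 for day 7 minus day 3 in DF.

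**Figure D3:**
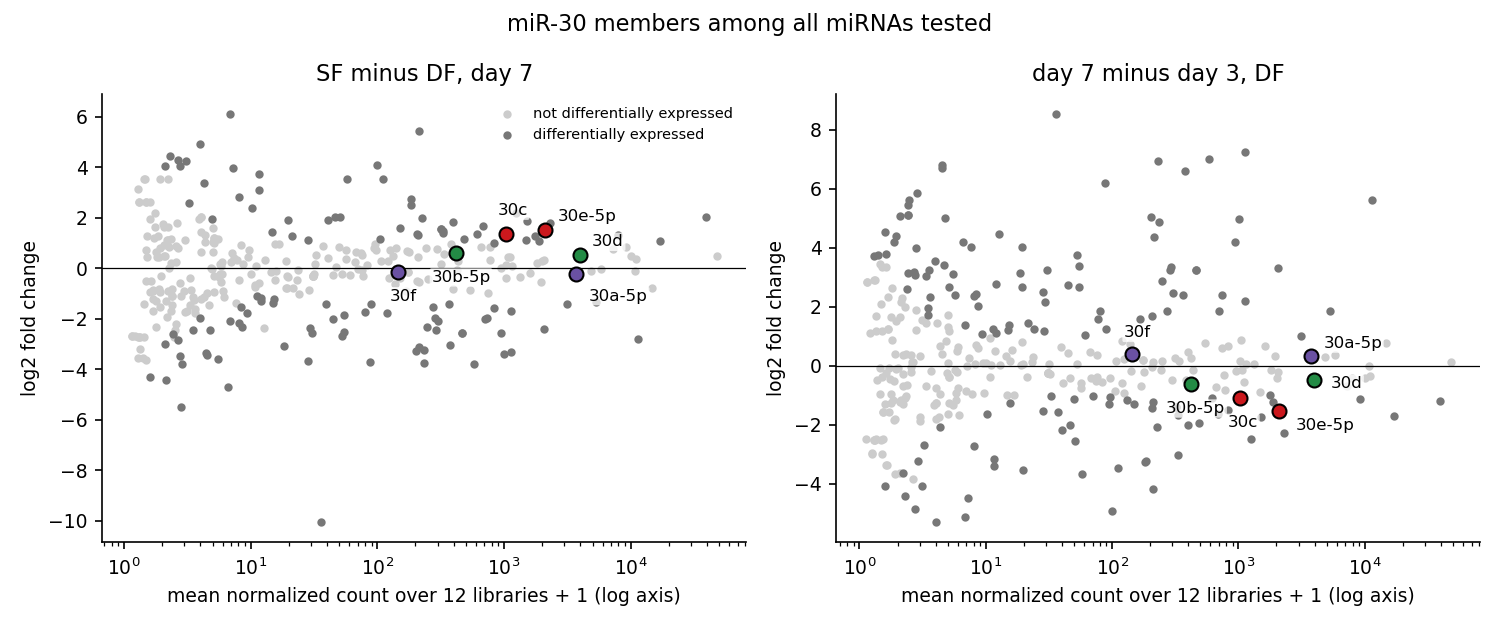
Log2 fold change (y axis) against the mean normalized read count over 12 libraries plus 1 (x axis, log scale) for all miRNAs tested in the comparison of SF with DF at day 7 (left) and of day 7 with day 3 in DF (right). Grey points are miRNAs, darker where differentially expressed, and the 6 abundant miR-30 members are coloured and named. The members lie to the right of most miRNAs, and their changes of -1.55 to 1.54 are well within the range of all miRNAs.

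At day 3, SF and DF were compared at the stage of recruitment and selection. None of the 7 members tested passed edgeR's test, where 16.7% of the 335 miRNAs tested passed it and 5.67% were differentially expressed. In that test the unadjusted p was under 0.05 for bta-miR-30c and bta-miR-30b-3p. The share of all miRNAs under this limit was not taken, so nothing is read from it. The closest of the abundant members was bta-miR-30c, with 1355 ± 124 in SF and 1051 ± 85 in DF (SD, n = 3 each), a log2 fold change of 0.32 (SE 0.14, edgeR adjusted p = 0.1251), and it passed when only miRNAs with at least 10 reads in 3 libraries were tested (adjusted p = 0.0743). With DESeq2, too, no member was differentially expressed. The groups did not overlap for bta-miR-30c or for bta-miR-30f (log2 fold change 0.36, SE 0.19, edgeR adjusted p = 0.236), as for 14.9% of all miRNAs tested with SF higher. For the others the log2 fold change was 0.24 for bta-miR-30a-5p (adjusted p = 0.287), 0.12 for bta-miR-30e-5p (adjusted p = 0.691), 0.07 for bta-miR-30b-5p (adjusted p = 0.860) and -0.11 for bta-miR-30d (adjusted p = 0.694), with standard errors of 0.12 to 0.16. Without replicate 2 of SF, the values of bta-miR-30b-5p and bta-miR-30e-5p turned to -0.13 and -0.035.

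Within SF, day 7 was compared with day 3, and no member passed the test. The 6 members tested had log2 fold changes from -0.22 for bta-miR-30a-5p to 0.08 for bta-miR-30d, with adjusted p-values of 0.739 and more, and the libraries of the 2 days overlapped for all 6, whereas they did not for 13.9% of all miRNAs tested. The value of bta-miR-30d was -0.053 when counts were scaled by library size alone, -0.0095 without replicate 1 of SF at day 3 and -0.024 without replicate 1 of SF at day 7. None of the 6 members had an unadjusted p under 0.05, a limit at which the share of all miRNAs was not taken. With DESeq2 none of these members was differentially expressed. Across the 337 miRNAs tested 0.89% passed and 0.593% were differentially expressed. With standard errors of 0.15 to 0.25, a change of a doubling would have been several standard errors, whereas changes as small as those measured were not detectable at this depth and number of libraries.

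Whether the difference between SF and DF itself changed between the days was tested as an interaction over the 12 libraries, as the difference at day 7 minus that at day 3. For bta-miR-30e-5p it was 1.30 on the log2 scale (SE 0.22, edgeR adjusted p = 0.000279), which met the limits of differential expression, as did bta-miR-30b-3p on 9 reads in all and 26.5% of the 378 miRNAs tested. For bta-miR-30c it was 0.93 (SE 0.22, edgeR adjusted p = 0.00469), which passed the test, as did 29.1% of all, without reaching a doubling. The other 4 abundant members did not pass: 0.53 for bta-miR-30d (adjusted p = 0.114), 0.43 for bta-miR-30b-5p (adjusted p = 0.259), -0.57 for bta-miR-30a-5p (adjusted p = 0.255) and -0.61 for bta-miR-30f (adjusted p = 0.240). The value of bta-miR-30d was between 0.53 and 0.59 in all 9 alternatives that kept the 12 libraries and passed in 5 of them, with adjusted p-values of 0.0526 to 0.0986 (DESeq2, TMM factors, library size alone, a minimum of 10 reads and counts summed over precursors). It also passed without replicate 2 of SF at day 3 (adjusted p = 0.0970) or replicate 3 of DF at day 7 (adjusted p = 0.0271), and that of bta-miR-30a-5p passed without replicate 2 of DF at day 7, at -0.80 (adjusted p = 0.0426).

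The passenger strand bta-miR-30b-3p was close to the detection limit. It had 1, 4 and 2 reads in the DF libraries of day 3, 2 reads in 1 SF library of day 7, and none in the remaining 8 libraries, where a count of 0 allows a share of up to 0.000919 to 0.00187%. Its guide strand bta-miR-30b-5p had 1783 reads in the same 3 DF libraries of day 3. Between day 3 and day 7 in DF the 7 reads against 0 met the limits of differential expression (edgeR adjusted p = 0.0621), but in no library did they exceed 4 reads, and no fold is given. The call was lost at a false discovery rate of 5%, with the replicate block (adjusted p = 0.142), without replicate 2 of DF at day 3 (adjusted p = 0.106) and without replicate 1 or 3 of DF at day 7 (adjusted p = 0.144 and 0.109). DESeq2 gave it no adjusted p, and the minimum of 10 reads left it untested. At day 3, where it did not pass between SF and DF, it was called without replicate 1 of DF (adjusted p = 0.0735).

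As a share of all reads on known miRNAs, the 7 members made up 4.74 ± 0.56% of a library in SF at day 3, 4.64 ± 0.29% in DF at day 3, 4.0 ± 0.32% in SF at day 7 and 3.21 ± 0.67% in DF at day 7 (SD, n = 3 each). The DF libraries of day 7, at 2.50 to 3.84%, lay below all DF libraries of day 3 and overlapped the SF libraries of day 7, at 3.69 to 4.33%. These shares are a description without a test.

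Within the family, the makeup of the reads changed with the pairs. Together bta-miR-30c and bta-miR-30e-5p held 31.9 ± 0.88% of the family's reads in SF at day 3, 30 ± 2.31% in DF at day 3, 30.1 ± 1.39% in SF at day 7 and 15.4 ± 3.71% in DF at day 7 (SD, n = 3 each). Together bta-miR-30a-5p and bta-miR-30f held 32.3 ± 2.22, 29.4 ± 0.57, 30 ± 4.89 and 46.4 ± 7.52% in the same order, and the pair of bta-miR-30b-5p and bta-miR-30d held 35.8 ± 1.72, 40.6 ± 2.79, 39.9 ± 3.53 and 38.1 ± 3.83%. In DF at day 7 the first pair was at 12.1 to 19.4% and in the other 9 libraries at 27.5 to 32.6%, with no overlap. Shares of a whole move against each other, so a larger share of bta-miR-30a-5p here does not by itself show a higher level.

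**Figure D4:**
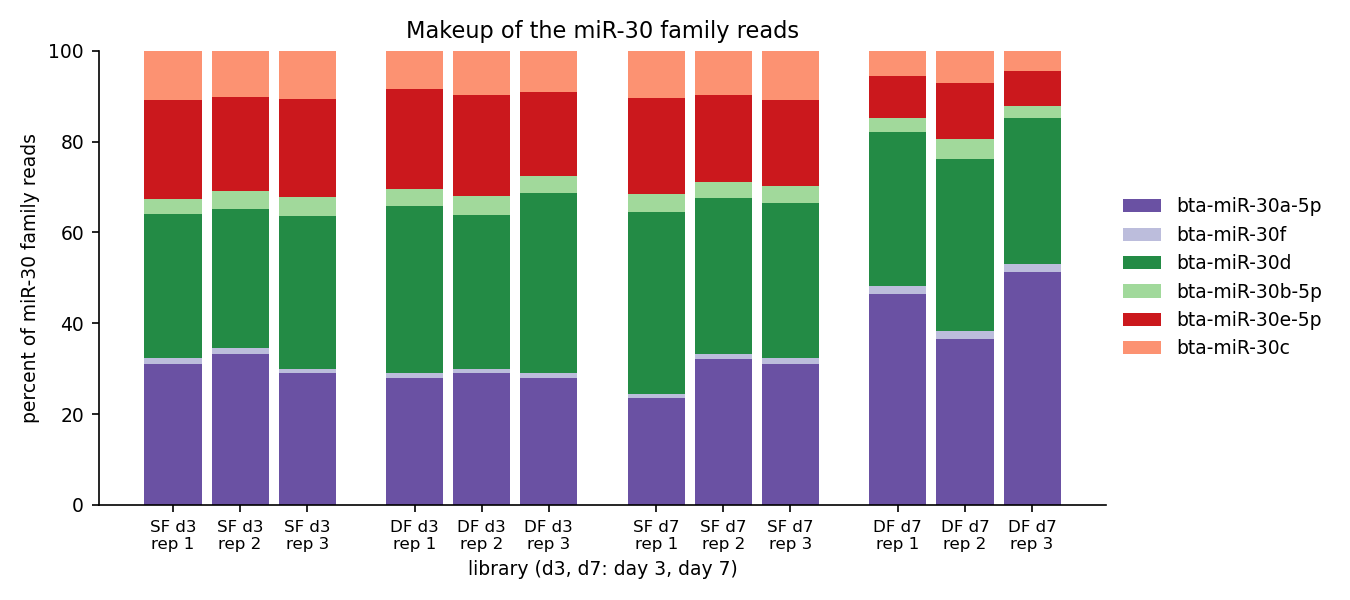
Percent of the reads of the miR-30 family (y axis, 0 to 100) held by each of the 6 abundant members in the 12 libraries (x axis). Each stacked bar is 1 library, and related colours mark the pairs of neighbouring precursor genes. The red segments, bta-miR-30e-5p and bta-miR-30c, take 27.5 to 32.6% in 9 libraries and 12.1 to 19.4% in the 3 DF libraries of day 7.

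By group means, ratios between the 2 members of a pair moved less than the 4 ratios taken between pairs, of which 2 are given here. The reads of bta-miR-30a-5p per read of bta-miR-30f were 25.6, 27.7, 25 and 25.7 on average in SF at day 3, DF at day 3, SF at day 7 and DF at day 7. The reads of bta-miR-30d per read of bta-miR-30b-5p were 8.46, 9.53, 9.84 and 10.4, and those of bta-miR-30e-5p per read of bta-miR-30c were 2.02, 2.34, 1.93 and 1.71. Across pairs, the reads of bta-miR-30e-5p per read of bta-miR-30a-5p were 0.689, 0.740, 0.704 and 0.229, and in DF at day 7 the 3 libraries spread from 0.150 to 0.335, below the lowest value elsewhere, 0.599. The reads of bta-miR-30d per read of bta-miR-30a-5p moved less, at 1.03, 1.30, 1.29 and 0.80. For that ratio the DF libraries of day 7, up to 1.04, overlapped the SF libraries of day 3, from 0.92. These ratios need no scaling between libraries and were not tested.

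The likeness of 2 miRNAs was measured as the root mean square difference of their log2 levels over the 12 libraries, each centred on its own mean, so that a small value means parallel profiles. It was taken among the 133 miRNAs with a mean of at least 50 normalized reads, where the median over all pairs was 0.877, and it is a description in which all points share their libraries. For bta-miR-30a-5p the nearest of 132 other miRNAs was bta-miR-30f, at 0.140, and the reverse held, with bta-miR-148a second for both, at 0.221 and 0.207, followed by bta-let-7e (0.241) and bta-miR-101 (0.222). For bta-miR-30e-5p the nearest were bta-miR-339a and bta-miR-339b, both at 0.151 with identical counts, and then bta-miR-30c at 0.184. For bta-miR-30c they were bta-miR-423-3p at 0.164 and bta-miR-339a and bta-miR-339b at 0.171, with bta-miR-30e-5p at rank 5. For bta-miR-30b-5p they were bta-miR-192 at 0.171, bta-miR-30d at 0.175 and bta-miR-1839 at 0.181. For bta-miR-30d they were bta-miR-331 at 0.151, bta-let-7f at 0.167 and bta-miR-93 at 0.174, with bta-miR-30b-5p at rank 5. So 2 of the 6 members had another member as nearest miRNA.

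Members of different pairs were less alike, with bta-miR-30e-5p at rank 83 for bta-miR-30a-5p (0.793). This spread came with the DF libraries of day 7. Over the 9 other libraries all 15 pairs of members lay between 0.111 and 0.311, and bta-miR-30a-5p and bta-miR-30e-5p were at 0.19. The median over all pairs of miRNAs was not taken over these 9 libraries, so this range has no background beside it and is not read as likeness within the family. The neighbours of bta-miR-30c and bta-miR-30e-5p by profile had like changes, since likeness chose them: for SF minus DF at day 7, bta-miR-339a was at 1.55 and bta-miR-423-3p at 1.37 on the log2 scale, and for day 7 minus day 3 in DF they were at -1.41 and -1.11.

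**Figure D5:**
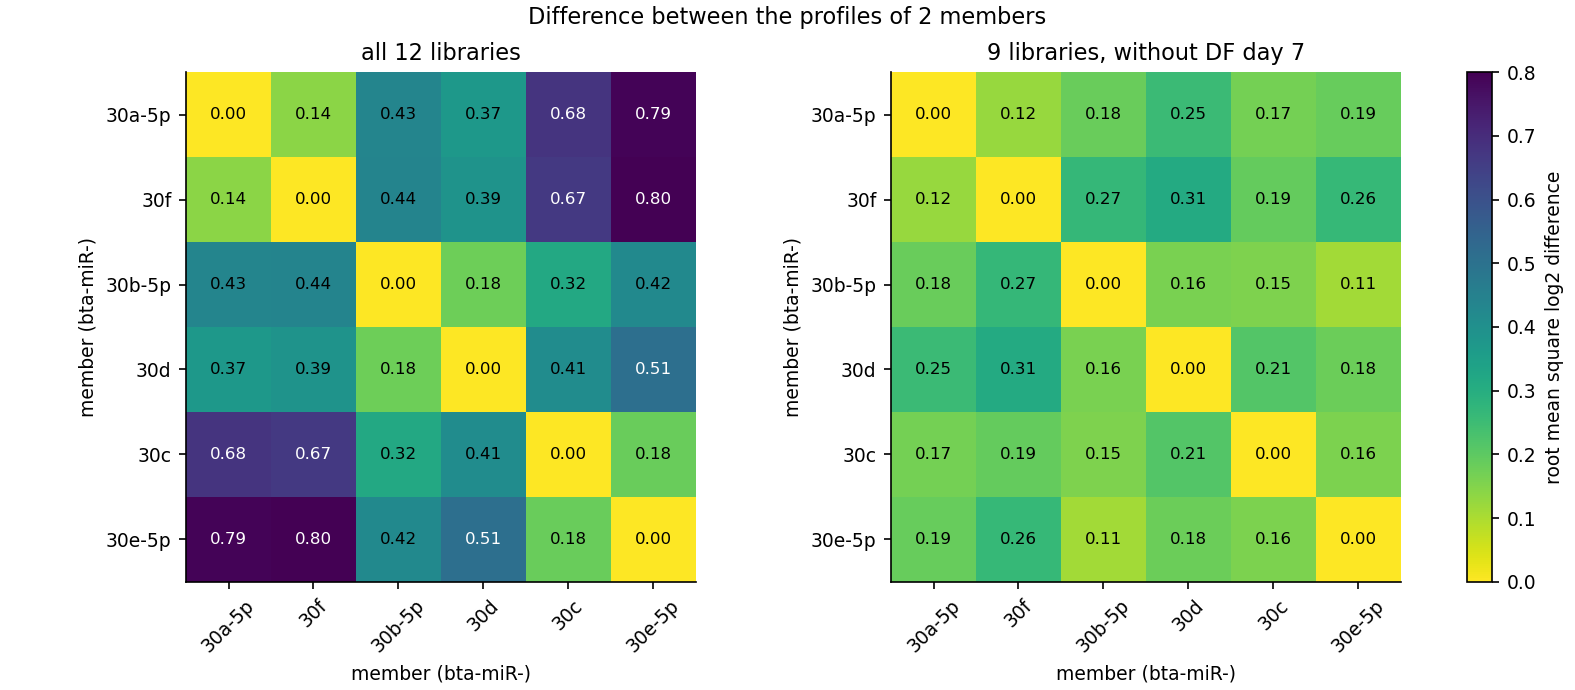
Root mean square log2 difference between the centred profiles of 2 members, for the 6 abundant members (both axes), over all 12 libraries (left) and over the 9 libraries without DF at day 7 (right). Yellow and small values are parallel profiles. On the left bta-miR-30a-5p and bta-miR-30f stand apart from bta-miR-30c and bta-miR-30e-5p by 0.67 to 0.80, and on the right the 15 pairs lie between 0.11 and 0.31.

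The DF libraries of day 7 also differed in markers of other cells, and in bulk libraries fewer cells of a type and less RNA per cell cannot be told apart. The 4 leukocyte markers summed to 3189, 8856 and 803 normalized reads in the 3 DF libraries of day 7, against 189 to 723 in SF at day 7 and 118 to 166 in DF at day 3. In DF all 4 were higher at day 7, and the 2 most abundant of them were bta-miR-142-5p (log2 fold change 4.97, edgeR adjusted p = 2.34e-05) and bta-miR-150 (4.87, adjusted p = 0.000127). The 5 markers of theca and stroma, the tissue outside the granulosa layer, summed to 12254, 8741 and 16997, against 3304 to 5462 in SF at day 7 and 2510 to 4301 in DF at day 3, and all 5 were higher at day 7 in DF, among them bta-miR-143 (1.84, adjusted p = 0.000117) and bta-miR-199a-3p (3.23, adjusted p = 2.99e-08). Between the days in DF, 40.3% of the 360 miRNAs tested were differentially expressed, and 60.7% of those were higher at day 7. The gonad-enriched bta-miR-202 was at 772, 374 and 1000 in the DF libraries of day 7, against 2269 to 2537 in SF at day 7 and 3209 to 3766 in DF at day 3. No marker of any list was at 0 in all libraries.

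The remaining lists marked red blood cells, endothelium and epithelium. The 3 erythrocyte markers summed to 829 to 2381 in DF and 449 to 528 in SF at day 7, with bta-miR-486 and bta-miR-451 lower in SF (log2 fold change -1.56, adjusted p = 0.00890, and -1.76, adjusted p = 0.00547). At day 3 they summed to 755 to 1114 in DF and 323 to 1684 in SF, and both ranges overlapped that of DF at day 7. None of the 3 was differentially expressed between the days in DF. The 2 endothelial markers, bta-miR-126-5p and bta-miR-126-3p, summed to 133 to 164 in DF and 93.2 to 226 in SF at day 7, and to 63.1 to 104 in DF at day 3, below all DF libraries of day 7. In DF bta-miR-126-3p rose from 37.9 ± 11.6 to 80.2 ± 6.54 (SD, n = 3 each), a log2 fold change of 1.05 (edgeR adjusted p = 0.0100), and bta-miR-126-5p did not pass (0.48, adjusted p = 0.175). The 5 epithelial markers, with bta-miR-141 and bta-miR-200a the most abundant, summed to under 5 normalized reads in any library of day 7, and to 1.54 to 22.1 in DF at day 3. Among the DF libraries of day 7, replicate 2 had the most leukocyte signal and the lowest bta-miR-30a-5p, bta-miR-30f, bta-miR-30d and bta-miR-202 and the lowest theca and stroma sum, and replicate 3 had the least leukocyte signal and the highest of these. The other abundant members did not have their lowest value in replicate 2. In replicates 1, 2 and 3 bta-miR-30b-5p was at 276, 295 and 326. Over the same 3 libraries bta-miR-30c was at 491 to 506 and bta-miR-30e-5p at 823 to 890. With 3 libraries, no member can be related to a marker sum. The part of these other cells in the differences of the miR-30 members was not tested.

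As a background for the family, 13 miRNAs studied for roles in granulosa cell survival or steroid synthesis were counted, all of them tested in each comparison. At day 7, 3 were differentially expressed with SF higher and 3 with SF lower, where 33.4% of all miRNAs tested were differentially expressed. Between the days in DF 5 were higher and 2 lower at day 7, where 40.3% of all were. At day 3 the counts were 2 and 1 (5.67% of all), in SF between the days none was called (0.593% of all), and for the interaction they were 2 and 4 (26.5% of all). Nothing particular to the list is read from these counts. The most abundant was bta-miR-21-5p, which is known to protect cells from apoptosis, at 756 ± 74.3 in DF at day 3 and 37628 ± 6897 in DF at day 7 (SD, n = 3 each), a log2 fold change of 5.62 (edgeR adjusted p = 2.47e-10). The next was bta-miR-202, which fell from 3409 ± 310 to 715 ± 317 in DF (SD, n = 3 each), a log2 fold change of -2.28 (edgeR adjusted p = 1.93e-05). The fall of bta-miR-30e-5p, at -1.55, and that of bta-miR-30c, at -1.10, were in the same direction as that of bta-miR-202. They were opposite in direction to bta-miR-21-5p and to the median of the 13 miRNAs, 0.88.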

How the data were processed

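The 12 small RNA libraries came from granulosa cells. The authors trimmed reads with cutadapt after CASAVA version 1.8.0 and FastQC, aligned them to the bovine genome and counted known miRNAs of miRBase with miRDeep2. The deposited values are raw read counts per mature miRNA and precursor, 1 table per library, with 160418 to 405129 reads each. The members, gene lists and tests were chosen with earlier results of these data known.

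For a name with several precursors the entry with the most reads was kept. edgeR 4.0.16 in R 4.3.3 was run on the counts as deposited, with RLE factors, a prior count of 0.125 and Benjamini-Hochberg adjustment, on miRNAs that had 1 read or more in 2 or more replicates of a compared group. The interaction was fitted over all 12 libraries. All members, the 3 nearest miRNAs of each and the 2 most abundant of each list are named. The test was checked on simulated counts. Alternatives were DESeq2 1.42.0, other scalings, filters and prior counts, a false discovery rate of 5%, a replicate block and leaving out each library. Gene neighbours come from RefSeq on a newer assembly than the files, so no coordinates are given, and mature sequences were not used here.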

Additional observations from a re-analysis of the deposited data

Results flagged for a closer look

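The interaction of follicle class and day, tested over the 12 libraries, was passed by 3 members, of which 2 also reached a doubling and are given here, while bta-miR-30c passed at 0.93 (SE 0.22, edgeR adjusted p = 0.00469). For bta-miR-30e-5p the interaction was 1.30 on the log2 scale (SE 0.22, edgeR adjusted p = 0.000279). It was between 1.24 and 1.43 and remained differentially expressed in all 12 fits that left out 1 library, and between 1.30 and 1.37 in the 9 other alternatives. The DF libraries of day 7 were below all others for this member, and these also carried the raised leukocyte and theca and stroma markers, whose part in the result was not tested.

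For bta-miR-30b-3p the fitted interaction was 6.64 (edgeR adjusted p = 0.0842). It rests on 9 reads, 7 in DF at day 3 and 2 in SF at day 7, with all 3 SF libraries of day 3 and all 3 DF libraries of day 7 at 0. The size depends on the prior count and is no bound on a fold: with a prior count of 2 it was 1.35. It was no longer called in 8 of the 12 fits that left out 1 library.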

How the results depend on the processing

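The calls of bta-miR-30c and bta-miR-30e-5p at day 7 and between the days in DF held under all alternatives run, with log2 fold changes of 1.22 to 1.41 and 1.39 to 1.57 at day 7 and of -1.25 to -1.07 and -1.69 to -1.50 in DF. The number of members differentially expressed in the interaction, 2 in the analysis reported, was 1 with DESeq2, with a minimum of 10 reads in 3 libraries, with a false discovery rate of 5% and with the replicate block, and 1 to 3 when a library was left out. At day 3 the number was 0 to 1 when a library was left out, the 1 being bta-miR-30b-3p. Between SF and DF at day 7 bta-miR-30d passed the test (0.55), but not with DESeq2 (adjusted p = 0.116), library size alone (0.185), the replicate block (0.104) or the stricter rate, and bta-miR-30b-5p did not with library size alone (0.136). For bta-miR-30d in SF the log2 fold change of 0.08 became -0.053 with library size alone. That scaling moved the median of all miRNAs by -0.15 for SF against DF at day 7, by -0.14 in DF and by -0.14 in SF, so member values under it are read against these shifts. Leaving out a library gave a range of -0.13 to 0.18 for bta-miR-30b-5p and -0.035 to 0.17 for bta-miR-30e-5p at day 3, of -0.47 to 0.10 for bta-miR-30a-5p and -0.29 to 0.076 for bta-miR-30f at day 7, of -0.0096 to 0.57 for bta-miR-30a-5p in DF and of -0.024 to 0.16 for bta-miR-30d in SF. The cause of these turns was not tested. Over all miRNAs, the number called at day 3 was 19 and became 11 with DESeq2, 12 with the minimum of 10 reads and 8 with all 12 libraries in one fit, and 10 without replicate 1 of SF. In DF it was 145 and became 92 with the minimum of 10 reads. In SF it was 2 and became 5 with DESeq2, 12 without a filter, 0 with the minimum of 10 reads, 1 with all 12 libraries in one fit, 7 with the replicate block and 0 to 20 without 1 library. Of the calls in SF 50% were higher at day 7, but 66.7% with TMM factors and 33.3% with library size alone. The libraries share replicate numbers that no label ties to an animal, and they were not paired for that reason. The correlation of deviations between same-numbered libraries ran from -0.143 to 0.139, and in no comparison did all 3 pairs exceed 0.1. The deviations were taken from the mean of each group's 3 libraries and are tied to each other. These values therefore cannot settle whether same-numbered libraries shared animals. For SF against DF at day 7 the 3 same-numbered correlations, 0.089, 0.078 and 0.128, were each above those between different numbers, of which the highest was 0.011, a hint from the data and not the design. With the replicate block, 2 members were differentially expressed at day 7 and 1 in the interaction. In DF, where 3 were reported, 2 were with the block, DESeq2, the minimum of 10 reads and the stricter rate. DESeq2 gave bta-miR-30b-3p no adjusted p, and the minimum of 10 reads left it untested. In the interaction bta-miR-30d, at 0.53, passed in 5 of 9 alternatives. Depth limits bta-miR-30b-3p most, with 9 reads in all. Leaving out a library gave log2 ratios of the family's share of -0.072 to 0.087 for SF against DF at day 3, a change of sign, of 0.17 (without replicate 2 of DF) to 0.47 (without replicate 3 of DF) at day 7 against 0.32 with all, and of -0.68 to -0.38 in DF. With a pseudocount of 10, 2 members again had another member as nearest miRNA.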
